A study of Homo sapiens with 78 samples.

Results

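The genes described here are 9 genes of the integrated stress response, ATF3, ATF4, DDIT3, TRIB3, PPP1R15A, PPP1R15B, CHAC1, ASNS and SESN2, chosen by name from the gene column of a table of TPM, a relative transcript level scaled by transcript length. The table lists 19652 genes. The rule uses names and no measured value, but the names were chosen with earlier results of these data known. Counts of called genes among the 9 are therefore descriptive. Of the 9, 9 passed the filter on low values that 13327 genes passed. The study asked how the glucocorticoid receptor and NF-κB act together on transcription. A549 cells, an established human lung carcinoma epithelial line whose labels give its genotype as WT, were kept overnight without serum and changed to fresh medium lacking serum. They were then not stimulated (NS) or treated with 1 ng/ml of the cytokine IL-1β (labelled IL1B), 300 nM of the glucocorticoid budesonide, or the combination (IL-1β-plus-budesonide), and poly(A) RNA was sequenced after 1, 2, 6, 12 and 24 h. Serum withdrawal and the medium change were shared by every group, and the labels do not say whether NS cells received the DMSO in which budesonide was dissolved. This gave 78 libraries in 20 groups, 18 of them with 4 libraries, and 2 with 3 (the NS group at 6 h, the IL-1β-plus-budesonide group at 12 h).

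The integrated stress response joins several stresses to the control of translation. Kinases that sense unfolded protein in the endoplasmic reticulum, double-stranded RNA, amino acid shortage or heme and mitochondrial stress phosphorylate the alpha subunit of the initiation factor eIF2. This lowers protein synthesis in general but favours translation of the ATF4 mRNA, and ATF4 then acts on genes of amino acid supply, redox balance and cell fate. Because ATF4 protein is set largely by translation, the mRNA levels given here do not give the protein. ATF3 and DDIT3, which encodes CHOP, are transcription factors of the same basic leucine zipper class. PPP1R15A (GADD34) and PPP1R15B (CReP) are the subunits that direct protein phosphatase 1 to eIF2 and so close the response. TRIB3 is a pseudokinase, CHAC1 degrades glutathione, ASNS makes asparagine and SESN2 restrains growth signaling through mTORC1.

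Sequence upstream of the start was taken from RefSeq (GRCh38.p14, the build the study used) for 9 of 9 genes in 15 windows of 250 bases, of which 4 genes had 1 window each. The windows shown are those upstream of CHAC1, ASNS, ATF3, PPP1R15B and PPP1R15A that held a searched motif. ATF3, PPP1R15A, PPP1R15B and CHAC1 had the largest mRNA responses described below, and ASNS rose at the same time as CHAC1. Capitals mark the match, and each line ends at the base just before the start. Windows lie at chr15:40953221-40953470 on the plus strand, chr7:97872409-97872658 on the minus strand, chr1:212565157-212565406 on the plus strand, chr1:204411818-204412067 on the minus strand and chr19:48872171-48872420 on the plus strand.
CHAC1: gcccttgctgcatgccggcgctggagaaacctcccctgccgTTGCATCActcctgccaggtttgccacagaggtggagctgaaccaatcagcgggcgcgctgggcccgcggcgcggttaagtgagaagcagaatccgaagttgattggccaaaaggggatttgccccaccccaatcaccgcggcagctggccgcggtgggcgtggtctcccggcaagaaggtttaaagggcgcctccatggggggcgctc
ASNS: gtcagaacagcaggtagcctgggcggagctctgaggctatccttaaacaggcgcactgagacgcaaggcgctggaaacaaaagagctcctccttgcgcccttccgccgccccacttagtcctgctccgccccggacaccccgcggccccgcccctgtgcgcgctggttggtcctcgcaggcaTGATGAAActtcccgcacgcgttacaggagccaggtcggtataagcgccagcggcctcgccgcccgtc
ATF3: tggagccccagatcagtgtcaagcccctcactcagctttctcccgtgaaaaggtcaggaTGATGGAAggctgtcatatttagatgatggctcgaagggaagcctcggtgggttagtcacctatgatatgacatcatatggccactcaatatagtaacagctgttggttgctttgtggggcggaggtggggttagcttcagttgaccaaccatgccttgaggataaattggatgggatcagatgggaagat
PPP1R15B: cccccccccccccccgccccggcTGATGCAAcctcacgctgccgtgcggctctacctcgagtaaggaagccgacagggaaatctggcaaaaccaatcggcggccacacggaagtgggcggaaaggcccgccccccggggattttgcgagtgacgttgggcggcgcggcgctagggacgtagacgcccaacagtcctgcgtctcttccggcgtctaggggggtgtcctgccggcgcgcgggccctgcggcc
PPP1R15A: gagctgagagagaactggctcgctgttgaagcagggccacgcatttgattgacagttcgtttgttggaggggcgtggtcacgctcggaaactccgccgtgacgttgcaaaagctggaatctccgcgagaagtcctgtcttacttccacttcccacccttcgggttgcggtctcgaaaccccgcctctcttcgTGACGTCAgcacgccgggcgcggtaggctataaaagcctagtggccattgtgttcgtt
TGATGNAA on either strand, the composite form that a C/EBP and an ATF factor can share, was found in 1 window each of 4 genes. The 9 genes had 15 windows together. Counted back from -1, the base before the start, its leftmost base lay at -209 in CHAC1, -68 in ASNS, -191 in ATF3 and -227 in PPP1R15B. The same letters occurred in 3.14% of all 35116 RefSeq windows cut to this length. These shares are per window, and no share per gene was computed. TGACGTCA, the full cyclic AMP response element, lay at -58 in PPP1R15A and in 1.65% of all windows. TGANTCA, the AP-1 form, was found in both DDIT3 windows and in 6.57% of all, and the NF-κB motif in SESN2 at -123 and in 5.21% of all. The CArG box (1.16% of all windows) and the perfect palindrome of the glucocorticoid response element, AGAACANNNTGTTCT (1 window in all), were in none of the 15 windows. No window held matches of more than 1 motif. A match gives letters in a window and not a bound site, and ATF3 and ASNS each had a second start whose window held none of these motifs.

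The values summed to between 812680 and 1009499 TPM per library, and read depth per library is unknown. The 6 epithelial markers examined were expressed with a summed level of 2184 to 15272 TPM, whereas the 6 alveolar type II markers summed to 9.48 to 18.8 TPM and 2 of these 6 had a median of at least 1 TPM, so the type II features of this line were low. Immune markers summed to 5.04 to 43.3 TPM and fibroblast markers to 4.15 to 25.3 TPM, again with 2 of 6 at a median of at least 1 TPM in each list, and endothelial markers to 0.0295 to 2.08 TPM. In 5 libraries the distance to the group median was 0.433 to 0.623 on the log2 scale (root mean square over the tested genes), against 0.167 to 0.301 in the other 73. Number 2 of the IL-1β-plus-budesonide and of the budesonide libraries at 12 h and of the IL-1β libraries at 24 h was among them, with budesonide number 3 at 2 h and IL-1β-plus-budesonide number 4 at 1 h, and values without them stand beside the called changes of the 9 genes that rest on their groups. As a check of the labels, CXCL8, a chemokine gene driven by NF-κB, was higher in IL-1β than in NS at 6 h by 8.85 ± 0.24 on the log2 scale (adjusted p = 2.35e-40), and TSC22D3, a glucocorticoid receptor target, was higher in budesonide than in NS at 6 h by 4.36 ± 0.13 (adjusted p = 9.76e-37).

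Fold changes below are differences of log2(TPM + 0.5) with their standard error (SE), a scale that understates changes of genes with low values. The test is limma, with p-values adjusted by Benjamini and Hochberg across all 13327 tested genes, and a gene is called up or down where the adjusted p is at most 0.05 and the change at least 2-fold. Counts of called genes are read against the percentage of all 13327 genes called in that direction at 1 or more times. Comparisons at a given time share the NS libraries of that time. In bulk RNA, fewer cells expressing a gene and less RNA per cell cannot be told apart, and gene-level TPM does not separate transcripts from the different starts of ATF3.

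The 9 genes spanned a wide range of levels in unstimulated cells. Over the 19 NS libraries ATF4 was highest, with a median of 1049.7 TPM (843.6 to 1246 TPM), and no other member came near it. TRIB3 followed with a median of 45.2 TPM (36.8 to 54.7) and ASNS with 35.6 TPM (21.7 to 53.2), and their ranges overlapped. PPP1R15A (median 12.0 TPM), PPP1R15B (11.2 TPM), DDIT3 (8.84 TPM) and ATF3 (5.58 TPM) formed a run in which each range overlapped the next, and the PPP1R15A maximum of 17.5 TPM stayed below every ASNS value. SESN2 (median 1.99 TPM) and CHAC1 (1.61 TPM) were lowest, and the ranges of this pair overlapped too.

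Levels in NS cells drifted with time after the medium change. Of the 9 genes limma called 0 up at a later time against 1 h (0.435% of all genes), with 2 higher at an unadjusted p under 0.05 (13.9% of all genes). By the same test 1 was called down (0.225% of all genes). That gene was ATF3, which had 7.66, 8.37, 8.39 and 9.54 TPM in the 4 NS libraries at 1 h and 2.34, 3.78, 4.26 and 5.58 TPM at 24 h, so the groups did not overlap. Its change at 24 h was -1.05 ± 0.22 (adjusted p = 0.0012). The call was lost with a pseudocount of 1 (-0.96) and without replicate 1 (adjusted p = 0.0549) or replicate 3 (-0.89). PPP1R15A was lower at 24 h by less than 2-fold (-0.68 ± 0.079, adjusted p = 6.34e-09), as were ASNS (-0.82 ± 0.17, adjusted p = 0.000823), DDIT3 (-0.69 ± 0.16, adjusted p = 0.00322) and ATF4 (-0.35 ± 0.077, adjusted p = 0.0016). SESN2 was higher by less than 2-fold, at 12 h by 0.56 (adjusted p = 0.00127) and at 24 h by 0.35 (adjusted p = 0.0373). For this reason each treatment was set against NS of its own time.

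IL-1β raised most of the integrated stress response genes, at times that differed from gene to gene. Of the 9 genes, 7 were called up at 1 or more times, ATF3, ATF4, TRIB3, PPP1R15A, PPP1R15B, CHAC1 and ASNS, against 7.53% of all genes. None of the 9 was called down by limma, against 8.8% of all genes, and 3 were lower at an unadjusted p under 0.05, against 46.9% of all genes. At an adjusted p alone SESN2 was lower, at 12 h by the most (-0.71 ± 0.11, adjusted p = 1.47e-07). DDIT3 and SESN2 passed neither call. The median of the time-averaged log2 fold changes of the 9 genes was 0.55, and that of all genes was -0.054.

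**Figure D1:**
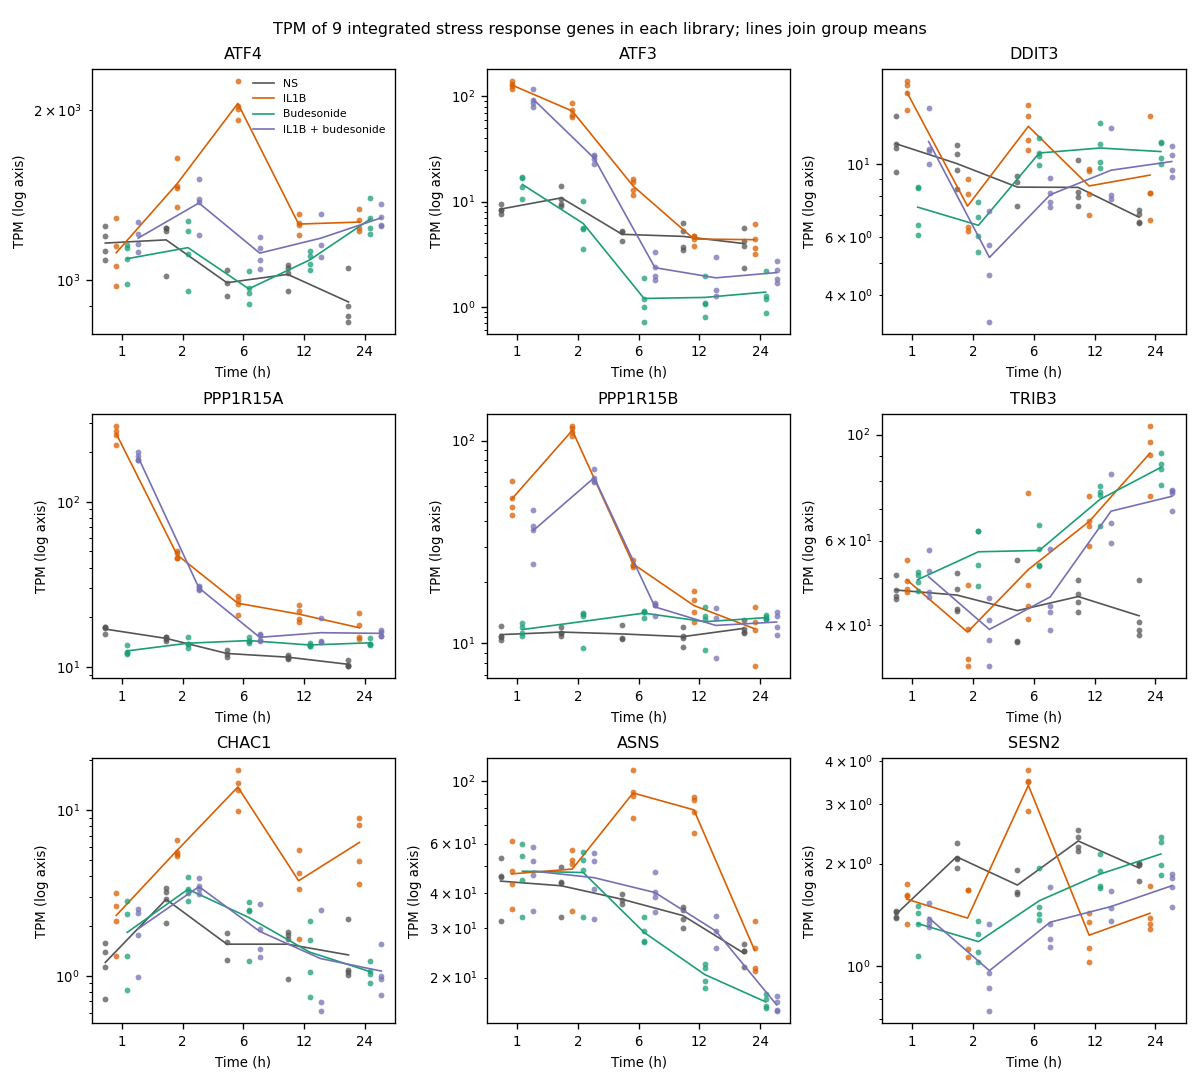
TPM (log axis) of each of the 9 genes in every library at 1, 2, 6, 12 and 24 h, with points for libraries and lines joining the means of NS, IL-1β, budesonide and IL-1β-plus-budesonide. PPP1R15A and ATF3 were highest with IL-1β at 1 h, PPP1R15B at 2 h, ATF4, CHAC1 and SESN2 at 6 h, and TRIB3 at 24 h.

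Among the transcription factors, ATF3 responded first. At 1 h the NS libraries had 7.66, 8.37, 8.39 and 9.54 TPM and the IL-1β libraries 117, 127, 130.3 and 140.4 TPM. Every IL-1β library was above every NS library, and the change was 3.85 ± 0.22 (adjusted p = 1.32e-22), 14.4-fold on this scale. At 2 h the IL-1β libraries had 63.3, 65.9, 74.4 and 86.6 TPM against 9.16, 9.49, 10.6 and 14.1 TPM in NS, a change of 2.70 ± 0.22 (adjusted p = 6.71e-16). At 6 h ATF3 was still raised, with 11.6, 12.9, 15.3 and 16.5 TPM against 4.22, 5.15 and 5.29 TPM in 3 NS libraries and a change of 1.43 ± 0.24 (adjusted p = 1.36e-06). At 12 h it was at 4.41 ± 0.422 TPM (SD, n = 4) in IL-1β and 4.67 ± 1.32 TPM (SD, n = 4) in NS, with overlapping values and a change of -0.044 ± 0.22 (adjusted p = 0.906). The ATF3 response was thus largest at the earliest time sampled.

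ATF4 mRNA, the most abundant of the 9, rose later and by less. At 6 h the IL-1β libraries had 1924, 2016, 2036 and 2257 TPM and the 3 NS libraries 935, 989.8 and 1043 TPM, with no overlap. The change was 1.06 ± 0.083 (adjusted p = 3.38e-17), just past 2-fold. At 1 h the means were 1118 ± 134 TPM (SD, n = 4) in IL-1β and 1163 ± 72.1 TPM (SD, n = 4) in NS, and the groups overlapped. Smaller differences passed the adjusted p but not 2-fold at 2 h (0.33 ± 0.077, adjusted p = 0.000805), 12 h (0.30 ± 0.077, adjusted p = 0.00135) and 24 h (0.48 ± 0.077, adjusted p = 6.12e-07).

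DDIT3, the gene of CHOP, was not called at any time with IL-1β. At 1 h it had 14.7, 16.4, 17.4 and 18.0 TPM in IL-1β and 9.45, 11.2, 11.5 and 14.0 TPM in NS, groups that did not overlap, but the change of 0.51 ± 0.16 (adjusted p = 0.077) passed neither threshold. At 2 h the difference had the opposite sign, -0.41 ± 0.16 (adjusted p = 0.0677). At 6 h it was 0.58 ± 0.17 (adjusted p = 0.00445), past the adjusted p but not 2-fold, with 13.1 ± 1.92 TPM (SD, n = 4) in IL-1β against 8.52 ± 0.915 TPM (SD, n = 3) in NS. Over all groups DDIT3 values lay between 3.32 and 18.0 TPM.

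The subunits that direct protein phosphatase 1 to eIF2 both rose sharply with IL-1β but peaked at different times. PPP1R15A, the inducible subunit, had 15.9, 17.1, 17.4 and 17.5 TPM in NS at 1 h and 221, 253, 268 and 289 TPM in IL-1β. The lowest IL-1β library lay far above the highest NS library, and the change was 3.88 ± 0.079 (adjusted p = 4.62e-47), 14.7-fold. At 2 h PPP1R15A had fallen back to 45.7, 46.0, 48.9 and 50.5 TPM in IL-1β against 14.5, 14.7, 15.2 and 15.3 TPM in NS, a change of 1.65 ± 0.079 (adjusted p = 3.5e-27). From 6 h it stayed higher than NS by less than 2-fold, by 0.97 ± 0.085 at 6 h (adjusted p = 3.29e-15), 0.83 ± 0.079 at 12 h (adjusted p = 1.13e-13) and 0.70 ± 0.079 at 24 h (adjusted p = 4.61e-11). The 6 h value passed 2-fold with median-of-ratios scaling (1.04).

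PPP1R15B, usually described as the constitutive subunit, rose over both early times. At 1 h it had 10.4, 10.7, 10.9 and 12.2 TPM in NS and 42.8, 47.1, 52.0 and 63.4 TPM in IL-1β, a change of 2.15 ± 0.14 (adjusted p = 2.9e-20). At 2 h it had 10.9, 11.2, 11.3 and 12.0 TPM in NS and 105, 110.2, 116 and 119 TPM in IL-1β, a change of 3.25 ± 0.14 (adjusted p = 1.66e-29) or 9.50-fold. No IL-1β library overlapped NS at either time, and at 2 h PPP1R15B stood above PPP1R15A in TPM, which is scaled per transcript length. At 6 h it was at 24.7 ± 0.847 TPM (SD, n = 4) against 11.1 ± 1.04 TPM (SD, n = 3), still called (1.12 ± 0.15, adjusted p = 7.13e-09), and at 24 h at 11.8 ± 3.10 TPM (SD, n = 4) against 11.9 ± 0.818 TPM (SD, n = 4).

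The difference in timing was tested directly as the IL-1β response at 2 h minus that at 1 h. It was -2.23 ± 0.11 (adjusted p = 7.99e-25) for PPP1R15A, 1.09 ± 0.20 (adjusted p = 4.47e-05) for PPP1R15B and -1.15 ± 0.32 (adjusted p = 0.0152) for ATF3, each past the adjusted p and 2-fold, which 2.18% of all genes were in either direction. The response of PPP1R15A and ATF3 was therefore smaller at 2 h than at 1 h, and that of PPP1R15B larger. From 2 h to 6 h the response grew for CHAC1 by 1.90 ± 0.42 (adjusted p = 0.000445), for SESN2 by 1.28 ± 0.16 (adjusted p = 2.93e-09) and for ASNS by 1.05 ± 0.25 (adjusted p = 0.00123). It grew by less than 2-fold for DDIT3 (0.996 ± 0.24, adjusted p = 0.00119), ATF4 (0.72 ± 0.11, adjusted p = 1.03e-06) and TRIB3 (0.53 ± 0.19, adjusted p = 0.0398). The response shrank for PPP1R15B by -2.13 ± 0.21 (adjusted p = 1.23e-12), ATF3 by -1.27 ± 0.33 (adjusted p = 0.00334) and PPP1R15A by -0.67 ± 0.12 (adjusted p = 8.85e-06). The share of all genes is not given for this step. An F test over the 5 times together with a range of at least 1 on the log2 scale was met by the IL-1β response of 8 of the 9 genes, all but DDIT3 (range 0.996), against 16.6% of all genes.

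The effector genes CHAC1, ASNS and TRIB3 were called up with IL-1β at 6 h or later. CHAC1 was already higher at 2 h, with 5.27, 5.40, 5.63 and 6.57 TPM in IL-1β and 2.09, 2.90, 3.20 and 3.39 TPM in NS, groups without overlap, and a change that passed the adjusted p but not 2-fold (0.89 ± 0.28, adjusted p = 0.0207). By 6 h CHAC1 had 1.25, 1.61 and 1.80 TPM in the 3 NS libraries and 9.83, 13.3, 14.7 and 17.4 TPM in IL-1β. The lowest IL-1β library exceeded the highest NS library, and the change was 2.78 ± 0.31 (adjusted p = 1.29e-11), 6.88-fold. At 12 h the IL-1β libraries had 1.68, 3.36, 4.19 and 5.79 TPM against 0.962, 1.66, 1.76 and 1.83 TPM in NS, and the groups overlapped. The 12 h change of 0.97 ± 0.28 (adjusted p = 0.00452) did not reach 2-fold here but did with median-of-ratios scaling (1.02), quantile normalization (1.09) and a pseudocount of 0.1 (1.13). At 24 h CHAC1 was again called up, with 3.58, 4.94, 8.13 and 8.91 TPM in IL-1β against 1.01, 1.06, 1.09 and 2.19 TPM in NS and a change of 1.87 ± 0.28 (adjusted p = 1.49e-07). The highest of these IL-1β values came from number 2, a library that stood apart, and without the 5 such libraries the change was 1.69.

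ASNS rose at 6 h and stayed up at 12 h. At 6 h it had 74.2, 88.4, 91.4 and 109 TPM in IL-1β against 36.5, 37.8 and 39.7 TPM in NS, a change of 1.23 ± 0.18 (adjusted p = 6.81e-08). At 12 h it had 65.2, 77.8, 85.4 and 87.8 TPM against 30.0, 32.4, 34.9 and 35.6 TPM, a change of 1.23 ± 0.17 (adjusted p = 1.56e-08). The groups did not overlap at either time. By 24 h ASNS was at 25.0 ± 5.02 TPM (SD, n = 4) in IL-1β and 24.5 ± 1.94 TPM (SD, n = 4) in NS (0.015 ± 0.17, adjusted p = 0.959).

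TRIB3 was called up at 24 h and at no earlier time. At 24 h it had 74.2, 90.5, 96.5 and 104 TPM in IL-1β against 38.0, 38.9, 40.5 and 49.6 TPM in NS, a change of 1.12 ± 0.13 (adjusted p = 8.31e-11), and 1.05 without the 5 libraries that stood apart, which include the highest IL-1β library. At 12 h the change of 0.51 ± 0.13 (adjusted p = 0.00101) passed the adjusted p alone.

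SESN2 moved in both directions by less than 2-fold. At 6 h it had 2.85, 3.48, 3.51 and 3.76 TPM in IL-1β against 1.62, 1.65 and 1.92 TPM in NS, groups without overlap, and the change was 0.80 ± 0.12 (adjusted p = 3.51e-08). At 2 h it was -0.48 ± 0.11 (adjusted p = 0.00054) and at 12 h -0.71 ± 0.11 (adjusted p = 1.47e-07). At 12 h the IL-1β libraries, at 1.03, 1.13, 1.35 and 1.43 TPM, lay below the NS libraries, at 2.18, 2.24, 2.39 and 2.51 TPM. The NS level had moved as well. Its mean was 1.42 TPM at 1 h and 2.33 TPM at 12 h, and the IL-1β mean was 1.57 and 1.23 TPM.

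With budesonide alone 1 of the 9 genes, TRIB3, was called up (4.87% of all genes) and 1, ATF3, was called down (6.36% of all genes). At an adjusted p alone 4 were higher (22.4% of all genes) and 5 lower (25.4% of all genes) at 1 or more times, DDIT3 and PPP1R15A in both counts. ATF3 at 1 h had 10.5, 13.8, 16.6 and 17.2 TPM in budesonide against 7.66, 8.37, 8.39 and 9.54 TPM in NS, without overlap but below the threshold (0.72 ± 0.22, adjusted p = 0.259). The direction then turned, and at 6 h it had 0.723, 1.01, 1.20 and 1.88 TPM in budesonide against 4.22, 5.15 and 5.29 TPM in NS, a change of -1.70 ± 0.24 (adjusted p = 7.63e-08). It stayed low at 12 h, 0.806, 1.06, 1.08 and 1.96 TPM against 3.46, 3.72, 5.22 and 6.28 TPM (-1.59 ± 0.22, adjusted p = 3.44e-08, and -1.55 without the 5 libraries that stood apart), and at 24 h, 0.870, 1.20, 1.27 and 2.18 TPM against 2.34, 3.78, 4.26 and 5.58 TPM (-1.25 ± 0.22, adjusted p = 4.25e-06). From 6 h on, every budesonide library had less ATF3 than every NS library of the same time.

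TRIB3 rose with budesonide as it did with IL-1β, reaching 78.3, 84.9, 86.9 and 91.4 TPM at 24 h against 38.0, 38.9, 40.5 and 49.6 TPM in NS. The change was 1.03 ± 0.13 (adjusted p = 6.71e-10), and without replicate 1 it was 0.999, which falls short of 2-fold. ATF4 at 24 h was higher by less than 2-fold (0.49 ± 0.077, adjusted p = 2e-07), as was DDIT3 (0.63 ± 0.16, adjusted p = 0.00104). ASNS was lower at 12 h (-0.69 ± 0.17, adjusted p = 0.00106) and 24 h (-0.56 ± 0.17, adjusted p = 0.00543), and SESN2 at 2 h (-0.63 ± 0.11, adjusted p = 1.71e-05), also by less than 2-fold. PPP1R15A was lower at 1 h, with 12.0, 12.2, 12.3 and 13.6 TPM against 15.9, 17.1, 17.4 and 17.5 TPM (-0.42 ± 0.079, adjusted p = 0.000421), and higher at 24 h (0.42 ± 0.079, adjusted p = 1.3e-05). The budesonide response differed over time for 2 of the 9 genes, ATF3 and DDIT3, by the F test and range above, against 11.2% of all genes.

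**Figure D2:**
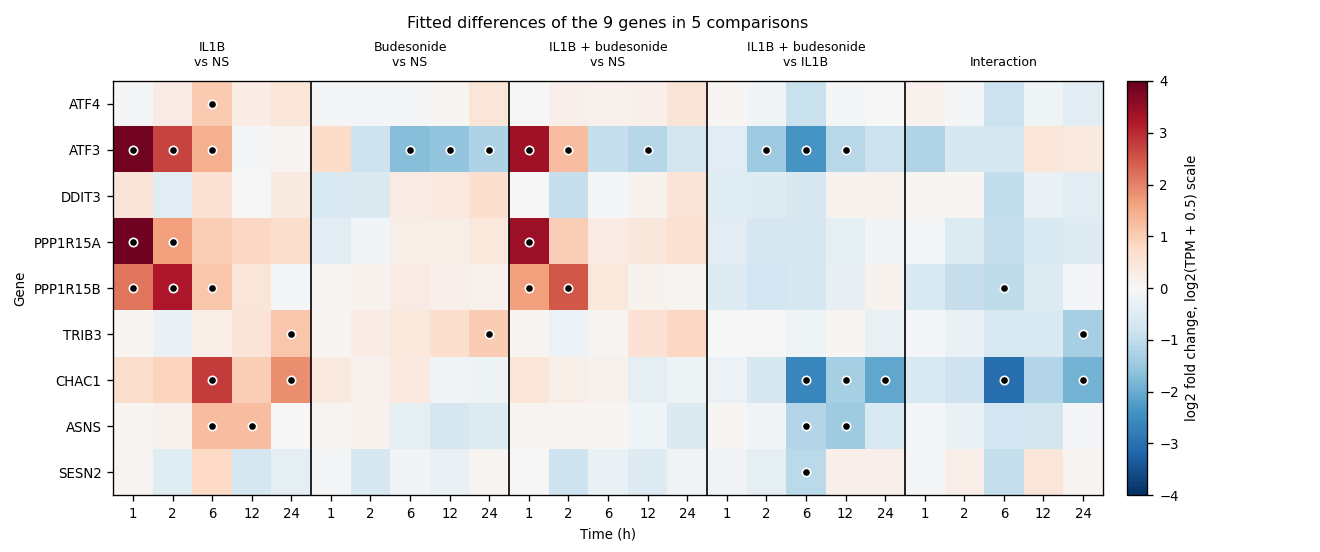
Fitted log2 fold change of each gene (rows) at each time in h (columns) for 5 comparisons, on the log2(TPM + 0.5) scale, with black dots where a gene was called. Dots with IL-1β run from 1 h for ATF3, PPP1R15A and PPP1R15B to 24 h for TRIB3 and CHAC1, and those of IL-1β-plus-budesonide against IL-1β lie at 2, 6, 12 and 24 h.

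With IL-1β-plus-budesonide against NS, 3 of the 9 genes were called up, ATF3, PPP1R15A and PPP1R15B (7.64% of all genes), and 1 was called down, ATF3 again at a later time (7.92% of all genes). At 1 h ATF3 had 79.7, 86.8, 91.7 and 116 TPM, a change from NS of 3.38 ± 0.22 (adjusted p = 8.62e-20), and PPP1R15A had 178, 179, 188 and 199 TPM, a change of 3.42 ± 0.079 (adjusted p = 7.19e-44). PPP1R15B changed by 1.63 ± 0.14 (adjusted p = 6.44e-15) at 1 h and by 2.48 ± 0.14 (adjusted p = 1.87e-23) at 2 h, and ATF3 by 1.23 ± 0.22 (adjusted p = 1.77e-05) at 2 h. These were the genes that IL-1β alone had raised at 1 h, whereas ATF4, TRIB3, CHAC1 and ASNS, which IL-1β alone raised later, were not called. TRIB3 at 24 h was still higher than NS by less than 2-fold (0.83, adjusted p = 2.23e-07), at 69.1 to 76.4 TPM against 38.0 to 49.6 TPM. ATF4 at 24 h was higher too, by 0.50 (adjusted p = 1.47e-07). The lowest ATF3 and PPP1R15B values at 1 h came from number 4, which stood apart, and without the 5 such libraries the 1 h changes were 3.45 and 1.80, and that of PPP1R15A was 3.41. At 12 h ATF3 had 1.27, 1.43 and 2.96 TPM against 3.46, 3.72, 5.22 and 6.28 TPM in NS, a change of -1.15 ± 0.24 (adjusted p = 0.000123), but the call was lost without the 5 libraries (-0.97), without replicate 1 (-0.97) and with a pseudocount of 1 (-0.99). DDIT3 at 2 h was lower by -0.93 ± 0.16 (adjusted p = 6.9e-06) and SESN2 by -0.83 ± 0.11 (adjusted p = 4.07e-09), both short of 2-fold. By the F test and range the response to IL-1β-plus-budesonide differed over time for 5 of the 9 genes, ATF3, DDIT3, TRIB3, PPP1R15A and PPP1R15B, against 15.5% of all genes.

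The effect of budesonide in the presence of IL-1β was read from IL-1β-plus-budesonide against IL-1β alone. By limma 0 of the 9 genes were called up, against 5.15% of all genes, and 0 were higher at an unadjusted p under 0.05, against 35.9% of all genes. By contrast 4 were called down, ATF3, CHAC1, ASNS and SESN2, against 5.6% of all genes, and 9 were lower at an unadjusted p under 0.05 at 1 or more times, against 38.6% of all genes. The median of the time-averaged changes of the 9 genes was -0.44, and that of all genes was -0.012.

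CHAC1 was lowered the most. At 6 h the IL-1β-plus-budesonide libraries had 1.31, 1.46, 1.92 and 2.73 TPM against 9.83, 13.3, 14.7 and 17.4 TPM in IL-1β, a change of -2.61 ± 0.28 (adjusted p = 1.33e-11), and the groups did not overlap. The 6 h values with budesonide present overlapped those of NS and differed from them by 0.17 ± 0.31 (adjusted p = 0.746). At 24 h IL-1β-plus-budesonide had 0.767, 0.953, 1.00 and 1.55 TPM against 3.58, 4.94, 8.13 and 8.91 TPM, a change of -2.08 ± 0.28 (adjusted p = 1.29e-08) that was -1.90 without the 5 libraries that stood apart. At 12 h the change was -1.32 ± 0.31 (adjusted p = 0.000454) and grew to -1.78 without those 5, of which IL-1β-plus-budesonide number 2 had the highest CHAC1 value of its group (2.51 TPM).

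ASNS was also lowered at 6 and 12 h. At 6 h it had 34.1, 38.7, 40.5 and 47.3 TPM in IL-1β-plus-budesonide against 74.2, 88.4, 91.4 and 109 TPM in IL-1β, a change of -1.16 ± 0.17 (adjusted p = 7.29e-08), and at 12 h 25.4, 29.4 and 33.1 TPM against 65.2, 77.8, 85.4 and 87.8 TPM, a change of -1.41 ± 0.18 (adjusted p = 3.95e-09). The 12 h change was -1.42 without the 5 libraries that stood apart. At both times the IL-1β-plus-budesonide values overlapped those of NS, from which they differed by 0.070 ± 0.18 (adjusted p = 0.836) and -0.18 ± 0.18 (adjusted p = 0.479). ATF4 at 6 h, with 1048, 1084, 1142 and 1191 TPM in IL-1β-plus-budesonide against 1924, 2016, 2036 and 2257 TPM in IL-1β, did not overlap either, and 11.9% of its rise was left. Its change of -0.88 ± 0.077 (adjusted p = 4.02e-15) was past the adjusted p but short of 2-fold, so ATF4 is not among the 4. SESN2 at 6 h had 1.14, 1.20, 1.33 and 1.71 TPM in IL-1β-plus-budesonide against 2.85, 3.48, 3.51 and 3.76 TPM in IL-1β, a change of -1.08 ± 0.11 (adjusted p = 5.52e-13), and the call was lost with a pseudocount of 1 (-0.91).

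ATF3 was called down at 2, 6 and 12 h. Its change was -0.47 ± 0.22 (adjusted p = 1) at 1 h, with 79.7, 86.8, 91.7 and 116 TPM in IL-1β-plus-budesonide and 117, 127, 130.3 and 140.4 TPM in IL-1β, where 70.9% of the mean rise was left. At 2 h it had 23.0, 25.4, 27.2 and 27.9 TPM against 63.3, 65.9, 74.4 and 86.6 TPM, a change of -1.46 ± 0.22 (adjusted p = 1.05e-06), and 24.3% of the rise was left. At 6 h it had 1.81, 1.94, 2.39 and 3.29 TPM against 11.6, 12.9, 15.3 and 16.5 TPM, a change of -2.37 ± 0.22 (adjusted p = 1.11e-13), and the IL-1β-plus-budesonide mean was below the NS mean. The groups did not overlap at these 3 times. At 12 h the change was -1.10 ± 0.24 (adjusted p = 0.000214) and fell short of 2-fold without the 5 libraries (-0.92), without replicate 1 (-0.96) or 2 (-0.92) and with a pseudocount of 1 (-0.95). At 24 h it was still lower by less than 2-fold, with 1.69, 1.84, 2.23 and 2.71 TPM against 3.19, 3.65, 4.36 and 6.19 TPM and no overlap (-0.87 ± 0.22, adjusted p = 0.00146), and without replicate 1 it was called (-1.01).

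The phosphatase subunits were lowered by less than 2-fold. PPP1R15A in IL-1β-plus-budesonide had 178, 179, 188 and 199 TPM at 1 h against 221, 253, 268 and 289 TPM in IL-1β, which left 70.3% of the rise, and at 2 h 29.3, 29.5, 30.6 and 31.0 TPM against 45.7, 46.0, 48.9 and 50.5 TPM, which left 46.2%. The changes of -0.46 ± 0.079 (adjusted p = 7.35e-05) and -0.66 ± 0.079 (adjusted p = 2.03e-09) were larger than the replicate spread but below 2-fold. PPP1R15B at 1 h was left with 62.1% of its rise. At 2 h it had 62.3, 62.9, 65.3 and 72.2 TPM against 105, 110.2, 116 and 119 TPM, which left 53.8% of the rise, and the change was -0.77 ± 0.14 (adjusted p = 4.29e-05). At 6 h its change was -0.69 ± 0.14 (adjusted p = 7.04e-05) and 29.6% of the rise was left. TRIB3 at 24 h had 69.1, 75.3, 76.3 and 76.4 TPM against 74.2, 90.5, 96.5 and 104 TPM, ranges that overlapped, and its change of -0.29 ± 0.13 (adjusted p = 0.0795) passed neither threshold. Of its rise over NS, 65.5% was left. DDIT3 was lower at 6 h, 7.41, 7.66, 8.16 and 9.07 TPM against 11.1, 11.8, 14.1 and 15.2 TPM, by less than 2-fold (-0.65 ± 0.16, adjusted p = 0.000942).

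**Figure D3:**
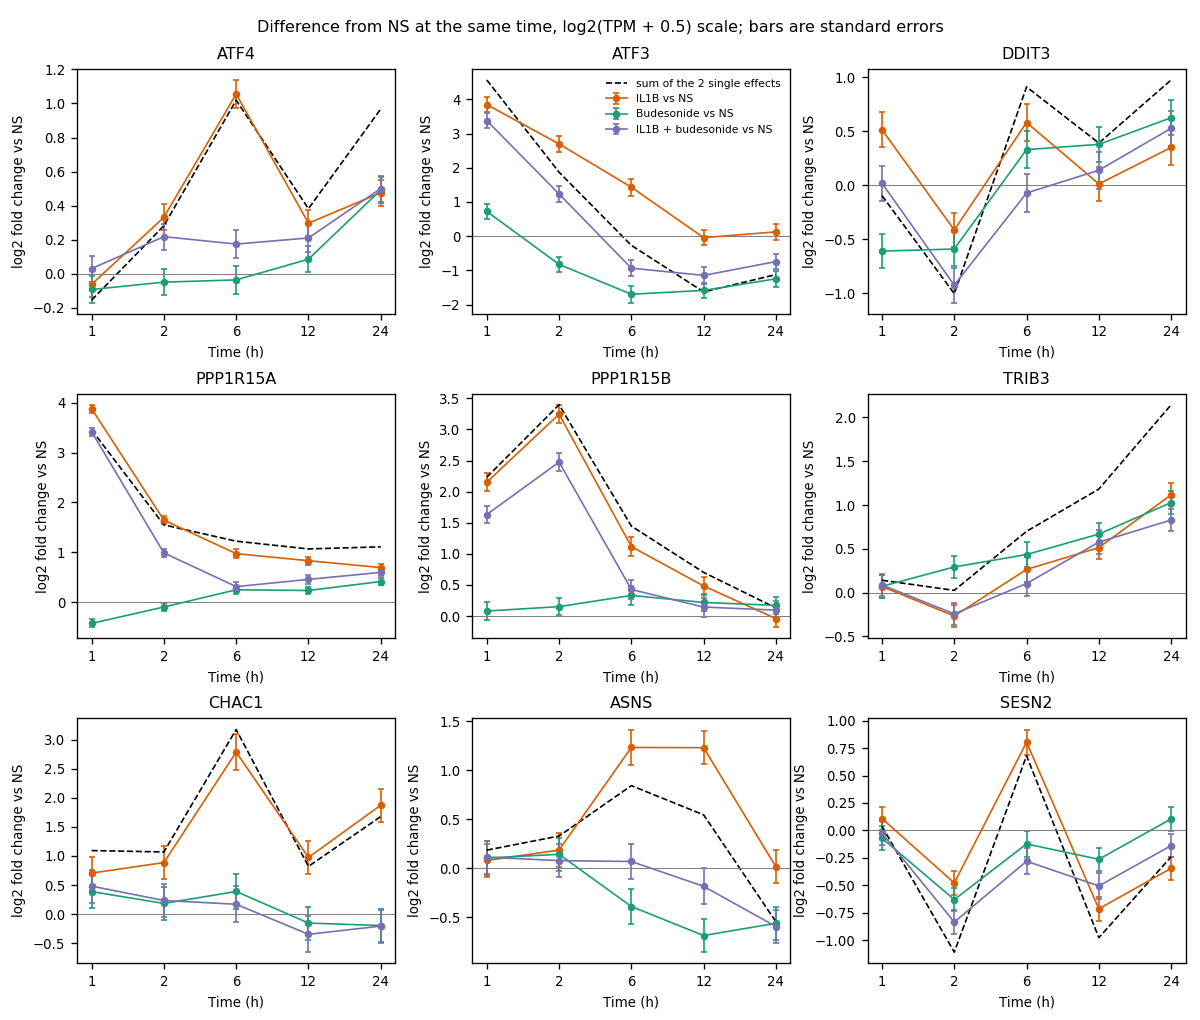
Log2 fold change against NS of the same time (SE bars) for IL-1β, budesonide and IL-1β-plus-budesonide over 1 to 24 h, with a dashed line for the sum of both single effects. The IL-1β-plus-budesonide points of CHAC1 lay below the dashed line at 6 and 24 h, and those of TRIB3 at 24 h, by -3.00, -1.88 and -1.32.

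The interaction, which subtracts the IL-1β and budesonide effects from the IL-1β-plus-budesonide effect on the log2 scale, asks whether the effects combine additively on that scale. By limma 0 of the 9 genes were called up (4.52% of all genes), with 1 above 0 at an unadjusted p under 0.05 (26.1% of all genes). The interaction was called down for 3, CHAC1, TRIB3 and PPP1R15B (3.47% of all genes). For CHAC1 the interaction was -3.00 ± 0.42 (adjusted p = 1.25e-07) at 6 h and -1.88 ± 0.40 (adjusted p = 0.000301) at 24 h, where budesonide alone differed from NS by 0.39 ± 0.31 and -0.20 ± 0.28 without being called. For TRIB3 it was -1.32 ± 0.18 (adjusted p = 6.16e-08) at 24 h, where each single treatment had raised the gene past 2-fold and IL-1β-plus-budesonide reached 74.3 ± 3.48 TPM (SD, n = 4), below the mean of either alone. Without the 5 libraries that stood apart the 24 h interactions were -1.70 for CHAC1 and -1.25 for TRIB3. For PPP1R15B it was -1.02 ± 0.21 (adjusted p = 0.000254) at 6 h, and the call was lost with a pseudocount of 1 (-0.99) and without replicate 1 (-0.93). At 6 h ATF4 (-0.85 ± 0.11, adjusted p = 4.3e-08), PPP1R15A (-0.91 ± 0.12, adjusted p = 1.38e-08), SESN2 (-0.96 ± 0.16, adjusted p = 6.21e-06), DDIT3 (-0.98 ± 0.24, adjusted p = 0.0024), ASNS (-0.77 ± 0.25, adjusted p = 0.033) and TRIB3 (-0.60 ± 0.19, adjusted p = 0.0311) passed the adjusted p but not 2-fold. For ATF3 the interaction was -1.19 ± 0.32 (adjusted p = 0.179) at 1 h, called down when each time was fitted on its own (adjusted p = 0.0313) and with the replicate number as a block (adjusted p = 0.00297), and -0.67 ± 0.33 (adjusted p = 0.228) at 6 h, where budesonide alone lowered ATF3. For CHAC1 at 12 h it was -1.17 ± 0.42 (adjusted p = 0.0598), called down with the block (-1.10, adjusted p = 0.00704) and without the 5 libraries (-1.45, adjusted p = 0.0133). The median of the time-averaged interaction was -0.37 for the 9 genes and 0.010 for all genes.

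Among 10 eIF2 kinases and their regulators, IL-1β raised 2, EIF2AK2 and DNAJC3 (7.53% of all genes), and limma called 0 down (8.8% of all genes), with 4 lower at an unadjusted p under 0.05 (46.9% of all genes). EIF2AK2 (PKR), which senses double-stranded RNA, was higher at 6 h by 1.66 ± 0.29 (adjusted p = 2.57e-06) and was lower in IL-1β-plus-budesonide than in IL-1β at 12 h by -1.33 ± 0.29 (adjusted p = 0.000183). EIF2AK3 (PERK), the sensor in the endoplasmic reticulum, was called up with IL-1β-plus-budesonide at 2 h (1.10 ± 0.20, adjusted p = 1.72e-05) and differed from NS with IL-1β at 6 h by 0.69 ± 0.22 (adjusted p = 0.00636). EIF2AK4 (GCN2), the sensor of amino acid shortage, and EIF2AK1 (HRI), the sensor of heme and mitochondrial stress, were called in no comparison, and at 6 h with IL-1β they differed from NS by -0.44 ± 0.11 (adjusted p = 0.000704) and -0.34 ± 0.14 (adjusted p = 0.0486). Of 12 genes, subunits of eIF2, eIF2B and protein phosphatase 1 and the separate initiation factor EIF2A, limma called 0 in any of the 5 comparisons. The share of all genes called in 1 direction ran from 3.47% to 8.8% between these comparisons. Their log2 changes lay between -0.67 and 0.80. With IL-1β against NS, 8 of the 12 were higher and 2 lower at an unadjusted p under 0.05, against 35.2% and 46.9% of all genes. By the same measure budesonide against NS gave 6 higher and 4 lower (29% and 34.3% of all genes). IL-1β-plus-budesonide gave 7 and 2 against NS (34% and 44.7%) and 4 and 4 against IL-1β (35.9% and 38.6%). In the interaction 1 was above 0 and 4 below (26.1% and 22.9%). These kinases act by phosphorylation, which mRNA levels do not measure.

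Other targets of ATF4 and CHOP were divided. Of 15 tested, IL-1β raised 5 (7.53% of all genes) and lowered 2 (8.8% of all genes) at 1 or more times, with GDF15 in both counts, and 9 were not called. The median of their time-averaged changes was 0.37. STC2, which encodes a secreted glycoprotein, was higher at 6 h by 3.30 ± 0.24 (adjusted p = 1.04e-18) and lower in IL-1β-plus-budesonide than in IL-1β by -2.05 ± 0.22 (adjusted p = 9.59e-12). BBC3, which encodes the death-promoting protein PUMA, rose at 2 h by 2.10 ± 0.11 (adjusted p = 7.3e-25), and TNFRSF10B, a death receptor gene, by 1.53 ± 0.12 (adjusted p = 1.21e-16). In IL-1β-plus-budesonide against IL-1β, 7 of the 15 were called down (5.6% of all genes), GDF15 by -2.79 ± 0.28 at 6 h among them, and limma called 0 up (5.15% of all genes), with 6 higher at an unadjusted p under 0.05 (35.9% of all genes). With budesonide alone, 2 of the 15 were called up (4.87% of all genes) and 3 down (6.36% of all genes). The largest change was that of GDF15, lower at 12 h by -3.08 ± 0.28 (adjusted p = 1.45e-14). HMOX1 was lower at 6 h by -1.48 ± 0.15 (adjusted p = 9.06e-13). DDIT4, an inhibitor of mTORC1 signaling, rose with budesonide at 24 h by 1.69 ± 0.094 (adjusted p = 4.49e-24), and STC2 by 1.33 ± 0.22 (adjusted p = 8.36e-07).

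Genes of amino acid supply were mostly not called with IL-1β (7.53% of all genes up and 8.8% down). Of 13 genes of amino acid and one-carbon synthesis, MTHFD2, a mitochondrial folate enzyme, rose at 6 h by 1.61 ± 0.11 (adjusted p = 6.28e-20) and GPT2, a transaminase, fell at 24 h (-1.29 ± 0.19, adjusted p = 4.18e-08), and the other 11 were not called. In IL-1β-plus-budesonide against IL-1β, 3 were called down (5.6% of all genes), MTHFD2 at 6 h by -1.37 ± 0.10, PSAT1 of the serine pathway at 12 h by -1.26 ± 0.12, and CTH at 24 h by -1.16 ± 0.20. Budesonide alone lowered 2 of the 13 (6.36% of all genes), PHGDH, which opens serine synthesis, at 24 h by -1.89 ± 0.20 (adjusted p = 2.77e-12) and PSAT1. Of 10 amino acid transporters tested, SLC7A1 rose and SLC43A1 fell with IL-1β, and SLC7A11, the cystine carrier, was lower with budesonide at 6 h by -1.98 ± 0.25 (adjusted p = 4.42e-09). Of 14 genes, aminoacyl-tRNA synthetases and the tRNA export receptor XPOT, GARS1 (1.01 ± 0.061) and WARS1 (1.06 ± 0.26) were called up with IL-1β at 6 h (7.53% of all genes). With budesonide limma called 0 (4.87% of all genes up and 6.36% down). At an unadjusted p under 0.05, 2 were higher and 7 lower with budesonide (29% and 34.3% of all genes). WARS1 was lower in IL-1β-plus-budesonide than in IL-1β (-1.22 ± 0.24). In that comparison 0 of the 14 were higher and 12 lower at an unadjusted p under 0.05 (35.9% and 38.6% of all genes).

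**Figure D4:**
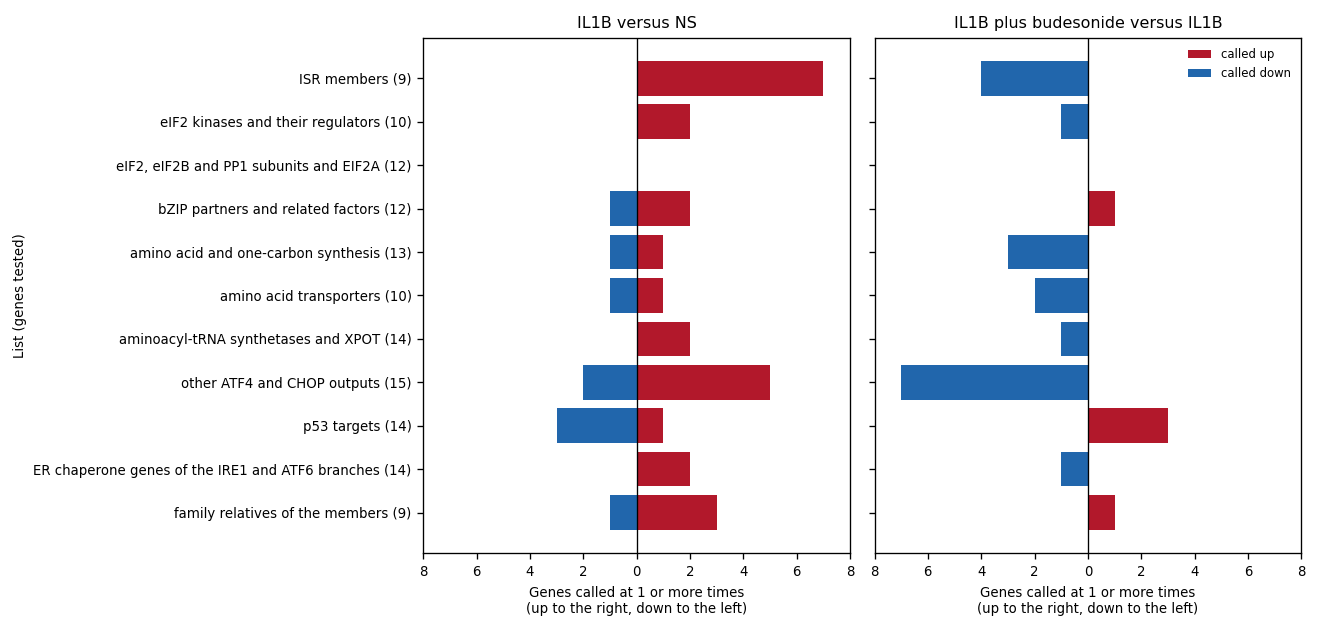
Number of genes called up (right) or down (left) at 1 or more times in IL-1β against NS and in IL-1β-plus-budesonide against IL-1β, for the 9 genes (top bar) and 10 lists of related genes, with the number tested in parentheses. The 9 genes had 7 up and 0 down in the first panel and 0 up and 4 down in the second.

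Of 14 chaperone and sensor genes of the IRE1 and ATF6 branches of the unfolded protein response, 2 were called up with IL-1β (7.53% of all genes), ERN1 (IRE1) at 12 h by 1.15 ± 0.23 and DNAJB9 at 6 h by 1.57 ± 0.20. In IL-1β-plus-budesonide against IL-1β, 1 was called down (5.6% of all genes), DNAJB9 at 12 h by -1.37 ± 0.20. There 0 of the 14 were higher and 12 lower at an unadjusted p under 0.05 (35.9% and 38.6% of all genes). Of the 10 amino acid transporters, 0 were higher and 8 lower by this measure. This pattern was therefore not particular to the 9 genes. Of 12 partner factors of the basic leucine zipper class and related genes, 2 were called up with IL-1β (7.53% of all genes), CEBPB and BATF3, and 1 down (8.8% of all genes), NUPR1. CEBPB, a partner of ATF4, rose with budesonide too, by 1.74 ± 0.12 at 2 h (adjusted p = 1.52e-18). Of 14 targets of p53, which also acts on SESN2, BTG2 was called up with IL-1β at 1 h (2.05 ± 0.13) and FDXR, SPATA18 and POLH down, 1 and 3 against 7.53% and 8.8% of all genes, with a median time-averaged change of -0.27. Among 9 relatives of the genes described here, 3 were called up with IL-1β, CEBPB counted again (7.53% of all genes), and 1 was called down (8.8% of all genes). TRIB1 was called up with IL-1β at 1 h (1.50 ± 0.096) and TRIB2 at 24 h (1.74 ± 0.24), SESN3 was called down at 6 h (-1.31 ± 0.20), and SESN1 was called up with budesonide at 24 h (1.06 ± 0.14).

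The 9 genes did not share a single profile. Over the 20 group means on the log2 scale, Pearson's r between pairs of the 9 genes ran from -0.54 (ATF3 with TRIB3) to 0.83 (ATF3 with PPP1R15A), with a median of 0.21 over 36 pairs. ATF4 and CHAC1 had r = 0.73, and CHAC1 and ASNS r = 0.63. By the same measure the tested genes nearest to ATF3 were NOCT (r = 0.93), RBBP6 (0.91) and FOSB (0.91), and those nearest to PPP1R15A were TMEM88 (0.96), EGR2 (0.96) and EGR1 (0.94), EGR1, EGR2 and FOSB being immediate early genes. PPP1R15B was nearest to CD83 (0.97), NFKBID (0.96) and KDM6B (0.96). ATF4 was nearest to MED10 (0.89), RRAS2 (0.87) and SNRPB2 (0.86), CHAC1 to PTAFR (0.89), SLC35C2 (0.89) and CSRP1 (0.88), and ASNS to PA2G4 (0.94), HSP90AB1 (0.93) and IARS1 (0.92). TRIB3 was nearest to CRLS1 (0.92), RABAC1 (0.89) and LAMTOR5 (0.89), whereas the nearest genes of SESN2 (ABHD4, 0.77, ABCC2, 0.76, and ZNF263, 0.75) and DDIT3 (AMOTL2, 0.72, RNF214, 0.71, and ZMYM5, 0.68) were less alike. These values describe 20 points that share culture times and treatments.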

How the data were processed

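Poly(A) RNA from A549 cells was sequenced in 78 libraries. The authors prepared stranded libraries and, per the labels and the paper, quantified transcripts with kallisto on GRCh38 and normalized them with sleuth. The deposited table gives gene-level TPM rescaled between libraries, so its values were treated as a normalized signal, without read counts. A second deposited file, with the authors' fold changes and p-values per comparison, was not used. The values of 1 library that the labels used here do not list, NS at 6 h number 3, were not analysed here. No 2 libraries held identical values.

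Groups were taken from the titles. The 13327 of 19652 genes that reached 1 TPM in 3 or more libraries were analysed as log2(TPM + 0.5) in limma 3.58.1 under R 4.3.3, with 1 mean per group, a trend on mean level and 58 residual degrees of freedom. All tests were two-sided with Benjamini-Hochberg adjustment over all genes of a contrast. The 9 genes and the lists were chosen with earlier results of these data known. Other genes were named by a rule: up to 4 genes per list and comparison with the largest change among those called, the 4 eIF2 kinases, the 3 genes nearest in profile to each of the 9, and the label checks. The labels give 4 independent experiments, with fewer at 12 h, where 3 groups nevertheless hold 4 libraries, and whether a library's number marks its experiment is not stated. The fit was tested on simulated data in which libraries varied independently of each other. That test does not cover deviations shared between libraries of the same number.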

Additional observations from a re-analysis of the deposited data

Results flagged for a closer look

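Of 162 groups of 4 libraries tested over the 9 genes, 7 held a value far from the other 3, and chance flags about 1 in 20 groups. ATF4 in NS at 2 h was 1018.5 TPM in replicate 1, against 1221 to 1239 TPM in the others. TRIB3 in IL-1β-plus-budesonide at 24 h was 69.1 TPM in replicate 1 (others 75.3 to 76.4). PPP1R15B was 9.47 TPM in budesonide at 2 h replicate 3 (others 13.7 to 14.2), a library that stood apart, 13.4 TPM in budesonide at 6 h replicate 1 (others 14.3 to 14.4) and 13.6 TPM in IL-1β-plus-budesonide at 6 h replicate 1 (others 15.5 to 15.8). CHAC1 in NS at 24 h was 2.19 TPM in replicate 2 (others 1.01 to 1.09), and SESN2 in NS at 24 h was 1.78 TPM in replicate 3 (others 1.99 to 2.01).

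A total of 15 responses differed over the 5 times by limma's F test with a range of at least 1 on the log2 scale. For IL-1β against NS the ranges over time were 3.89 for ATF3, 3.29 for PPP1R15B, 3.19 for PPP1R15A, 2.08 for CHAC1, 1.52 for SESN2, 1.38 for TRIB3, 1.22 for ASNS and 1.12 for ATF4. For budesonide they were 2.42 for ATF3 and 1.24 for DDIT3. For IL-1β-plus-budesonide they were 4.53 for ATF3, 3.11 for PPP1R15A, 2.38 for PPP1R15B, 1.45 for DDIT3 and 1.07 for TRIB3. The largest adjusted p among these was 8.46e-05, for CHAC1 with IL-1β.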

How the results depend on the processing

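Of 38 calls of a gene at a time, 32 held under every alternative that tested them (pseudocounts of 1 and 0.1, no filter, a mean of at least 5 TPM, median-of-ratios and quantile scaling, replicate block, fit per time point, no trend, leaving out each replicate, and leaving out the 5 libraries that stood apart, which was chosen after seeing the data), and no direction reversed. The 6 others are named in the report beside their values. With a pseudocount of 1, 0 genes were down in IL-1β-plus-budesonide against NS and 0 in NS over time. With 0.1, 2 were down in IL-1β-plus-budesonide against NS and 5 in the interaction. With a mean of at least 5 TPM, CHAC1 and SESN2 were not tested, and 2 genes were down in IL-1β-plus-budesonide against IL-1β. Without the 5 libraries, 0 were down in IL-1β-plus-budesonide against NS. The cause was not tested. Leaving out a replicate gave 0 to 1 up with budesonide, 0 to 2 down in IL-1β-plus-budesonide against NS and 0 to 1 down in NS over time.

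At an adjusted p alone, 1 gene was down with IL-1β (38.3% of all genes), 4 up (22.4%) and 5 down (25.4%) with budesonide, 6 up (27.1%) and 4 down (33.5%) with IL-1β-plus-budesonide, 8 down against IL-1β (29.4%), 1 up (13.3%) and 8 down (11.6%) in the interaction, and 1 up (3.19%) and 5 down (3.2%) in NS over time. Same-numbered libraries of different groups had deviations that correlated with a median r of 0.20 (-0.39 to 0.87), against -0.080 for other numbers. By this measure 74 of 78 libraries correlated best with their own number, which the labels do not explain. The SEs and p-values of the main fit did not take this sharing into account. With the number as a replicate block, 1 gene (CHAC1 at 2 h, 1.00) was up in NS over time and 3 gene-level calls were gained, ATF3 (1 h) and CHAC1 (12 h) in the interaction among them, and none was lost. Over all genes, the down calls of NS over time were 51 with a pseudocount of 0.1 against 30, and the up calls 23 without replicate 1 against 58. With a mean of at least 5 TPM fewer genes were tested, and calls over all genes went from 1003 up and 1173 down to 585 and 692 with IL-1β, from 649 up to 391 with budesonide, from 1018 and 1055 to 577 and 661 with IL-1β-plus-budesonide, from 686 and 746 to 395 and 439 against IL-1β, from 603 and 462 to 377 and 241 in the interaction, and from 58 up to 29 in NS over time. The paper gives only an approximate read depth. Without read counts, counting error for CHAC1 and SESN2, near 1 to 2 TPM, was not computed.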
